A study of Homo sapiens with 4 samples.

Results

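The D4Z4 repeat ends of chromosomes 4 and 10 are the last 500 kb of the long arms 4q35 and 10q26, taken here with the genes FRG1 and FRG2 at 4q35 and FRG2B at 10q26. The ends and genes were selected on the same lists of H4K20me3 regions that are described below, so their coverage is given as a description and no test was made on it. Of 57082 regions in 3 lists, 83 lay in both ends, 48 of them at 4q35 and 35 at 10q26. FRG1, FRG2 and FRG2B are 3 of 20163 annotated protein-coding genes.

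H4K20me3, the trimethylated form of lysine 20 of histone H4, was mapped by ChIP-seq in IMR90, fibroblasts from human lung that divide a limited number of times in culture. Cells still proliferating (PRO, population doubling 32) were set against cells in replicative senescence (RS, population doubling 86), the lasting arrest that follows long culture. Both groups came from this 1 line, the labels name no drug or transgene for either, and each held 2 samples, 1 for each of 2 antibodies. A single merged list of peaks found with both antibodies stood for each group, and a DiffBind list held regions that differed between the groups at a false discovery rate of 0.01, without the direction of the change. The lists give positions only, without scores or reads, so no replicate error could be given, and a base outside a list is only a base at which no region was called.

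D4Z4 is a repeat unit that begins at a KpnI restriction site, is rich in CpG and holds the open reading frame of DUX4, a transcription factor of the early embryo. Arrays of this unit lie near the ends of 4q and 10q and are kept silent in most adult cells by DNA methylation and repressive histone marks. Loss of this silencing on 4q can cause facioscapulohumeral muscular dystrophy, but not on every form of 4q. In this disease, contraction of the array or loss of the chromatin protein SMCHD1 can let DUX4 be expressed in muscle. FRG1, a gene for a nuclear protein linked to RNA processing, and FRG2 lie on the centromeric side of the 4q array, and FRG2B is the copy of FRG2 on 10q.

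Both arrays were found in the genome sequence (GRCh37/hg19) as the run of KpnI sites (GGTACC) spaced 3000 to 3600 bases apart that lies nearest to the telomere. The 4q35 array held 8 complete units over 26.4 kb at chr4:190987296-191013659, and the 10q26 array held 6 units over 19.8 kb at chr10:135478839-135498675. These are the arrays of the reference sequence, and the number of units in IMR90 was not measured. The 120 bases around the first KpnI site are shown because all distances below are counted from that site, which is in capitals (chr4:190987266-190987385, plus strand). The matching stretch of 10q26 (chr10:135478809-135478928, plus strand) differed from it at 0 bases.
4q35 array start: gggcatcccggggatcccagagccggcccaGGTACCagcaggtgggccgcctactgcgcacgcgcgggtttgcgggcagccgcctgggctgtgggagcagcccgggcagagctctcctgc

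The next pair shows how a unit of 10q26 (chr10:135482029-135482114, plus strand) can be told from one of 4q35 (chr4:190990470-190990555, plus strand). Capitals mark the BlnI restriction site (CCTAGG) in the first line and the bases that differ from 10q26 in the second.
10q26 unit: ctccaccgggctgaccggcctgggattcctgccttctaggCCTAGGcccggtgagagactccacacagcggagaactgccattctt
4q35 unit: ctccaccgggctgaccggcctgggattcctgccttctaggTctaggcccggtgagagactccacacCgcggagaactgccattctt
The 2 stretches differed by 2 substitutions over 86 bases. The BlnI letters were present once in 6 of 6 units at 10q26 and in 0 of 8 units at 4q35. They occur on either strand in 47.9% of windows of 3300 bases tiled over chromosomes 1 to 22 and X, and the KpnI letters occur in 27.2%. Both sites are palindromes, so each match counts for both strands.

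The units of both arrays were of nearly the same length and composition. Units were 3293 to 3300 bases long at 4q35 and 3299 to 3310 bases long at 10q26. Identity to the first 4q35 unit was 99% or more in the other 4q35 units and 98.0% to 98.3% in the 10q26 units. The 4q35 array was 72.6% G and C with 97.6 CpG per kb, and the 10q26 array was 72.5% G and C with 97.4 CpG per kb.

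The arrays were the longest covered stretches of either end in PRO and in RS. In PRO, 1 peak of 28.2 kb (chr4:190986201-191014401) covered 100% of the 4q35 array, and 1 peak of 24.4 kb (chr10:135477801-135502201) covered 100% of the 10q26 array. In RS, 3 peaks covered 97.0% of the 4q35 array, and 1 peak of 21.2 kb covered 100% of the 10q26 array. The DiffBind list covered 0 bases of either array. All 14 units were thus in peaks of both groups, and none was in a region listed as different between them. The units share most of their sequence within and between the arrays, as given below, so they are not 14 separate observations.

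The RS peak on the 4q35 array was broken at 2 places that had no gap in PRO. One gap of 399 bases lay in the first unit (chr4:190987402-190987800) and one of 399 bases in the second (chr4:190991002-190991400), so that 87.9% of each of these units was covered. The other 6 units of 4q35 were 100% covered in RS. Per the study's methods, peaks were called in windows of 200 bases and joined across gaps of 200 bases. Both breaks are thus near the shortest that could be listed. A break with either antibody would be enough, since the list is an intersection, and this was not tested. In the first gap, 49.9% of 75-base windows occurred more than once in the genome, against 100% in the second. The first 200 bases of the first gap (chr4:190987402-190987601, plus strand) are shown with CpG in capitals, since this is the only array sequence outside the RS peaks besides the second gap. They held 27 CpG and were 81.0% G and C.
4q35 unit 1 gap: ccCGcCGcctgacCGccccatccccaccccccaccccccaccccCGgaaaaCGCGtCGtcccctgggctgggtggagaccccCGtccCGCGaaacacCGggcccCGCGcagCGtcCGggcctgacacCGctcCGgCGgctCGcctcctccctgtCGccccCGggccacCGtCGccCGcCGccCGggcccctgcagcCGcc

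The peaks ran past the array by similar lengths on the centromeric side and by different lengths on the telomeric side. On the centromeric side the peak began 1095 bases before the first KpnI site at 4q35 in PRO and 895 bases before it in RS. At 10q26 it began 1038 bases before the site in both groups. On the telomeric side the 4q35 peak ended 742 bases past the last KpnI site in PRO and in RS. At 10q26 the PRO peak ended 3526 bases past the last site. The RS peak there ended 326 bases past it, and a further RS peak of 3.00 kb (chr10:135499401-135502401) followed after a gap of 399 bases. The plot of regions around the arrays shows these edges.

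**Figure D1:**
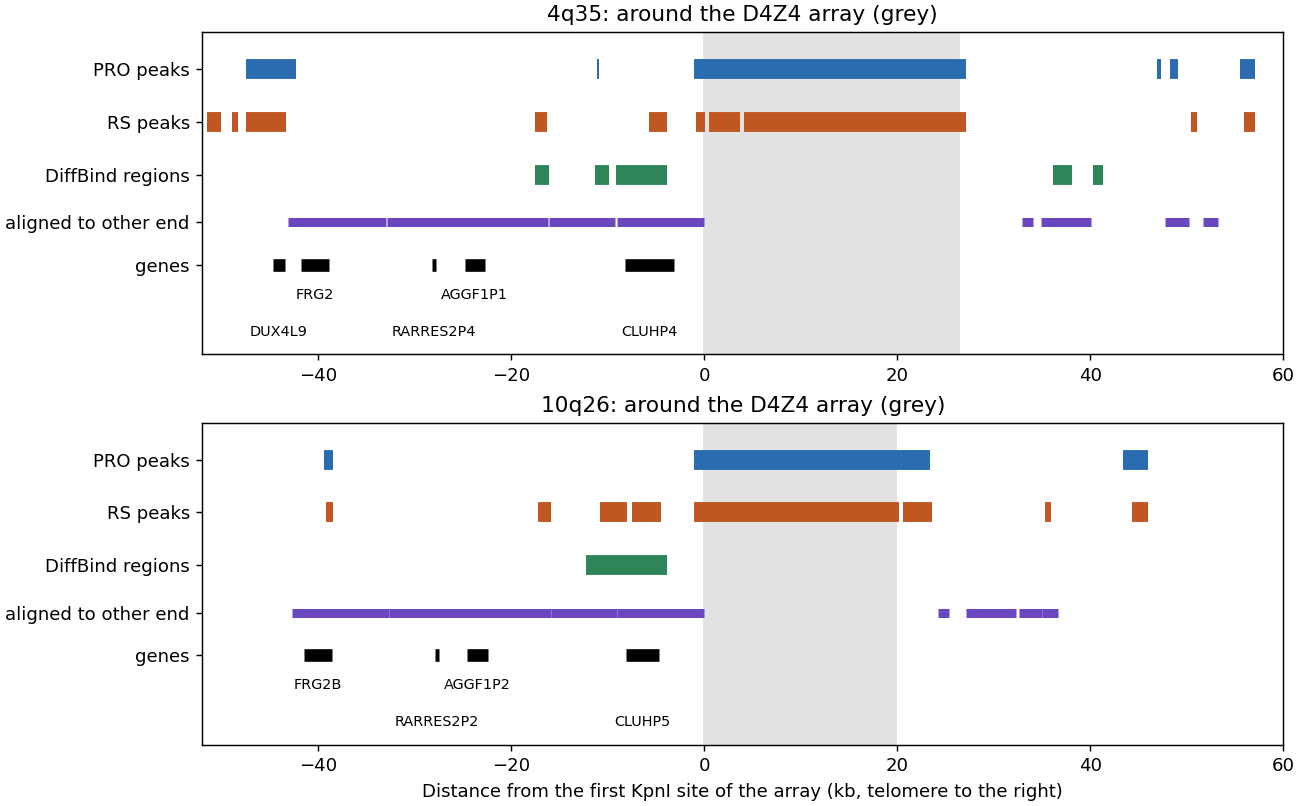
Regions of the PRO, RS and DiffBind lists around the D4Z4 array (grey) of 4q35 (top) and 10q26 (bottom), by distance in kb from the first KpnI site, with the blocks that align to the other end (purple) and selected annotated genes (black). PRO and RS peaks fill both arrays, while DiffBind regions lie beside them, and the first one on the centromeric side ends 3894 bases before the array at 4q35 and 3837 bases before it at 10q26.

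Reads were 75 or 76 bases long, and most windows of 75 bases in the arrays were not unique. A window was counted as repeated when its sequence occurred again anywhere in the genome on either strand. Repeated windows made up 97.2% of the 4q35 array and 98.5% of the 10q26 array, with a median of 27 copies at each. Of the windows, 62.3% of those at 4q35 also occurred at 10q26, and 70.3% of those at 10q26 also occurred at 4q35. The share of reads that came from each array was not tested, and the sources used here do not state whether reads with several placements were kept. In units 4, 6, 7 and 8 of 4q35, 100% of windows were repeated, yet PRO and RS covered 100% of each. Reads of 75 bases under the peaks there thus fitted several places, and the coverage cannot be assigned to a single unit. Over the array windows found once in the genome, RS covered 73.3% at 4q35 and 100% at 10q26, and PRO covered 100% at both.

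Few other long matches to D4Z4 were found on the chromosomes analysed. The first 4q35 unit matched 3 further places on these chromosomes over at least 1000 bases and at 80% identity or more. An inverted partial copy at 4q35 (chr4:190942360-190943931), with 92.0% identity, was 100% covered in PRO and in RS. A copy on chromosome 3 (chr3:75717970-75719534), with 86.8% identity, was also 100% covered in both. A copy on chromosome 12 (chr12:34361266-34362736), with 80.4% identity, was covered to 0% in PRO, 77.2% in RS and 77.2% in the DiffBind list. A further 33 matches lay on unplaced contigs, which the lists do not name. Of the 75-base windows of the arrays, 11.3% at 4q35 and 9.47% at 10q26 also occurred on chromosomes outside both ends, with chromosome Y counted here.

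Genes named for the D4Z4 reading frame followed the arrays. Most of those in the ends are copies inside the arrays, so they are not separate observations. Within the ends, 17 of 17 genes whose symbol begins with DUX4 were wholly covered in PRO and in RS, and 0 of 17 overlapped a DiffBind region. They comprised DUX4 itself, an array copy annotated as protein-coding, whose span also holds DUX4L1, with DUX4L1 to DUX4L9 at 4q35 and DUX4L10 to DUX4L15 and DUX4L28 at 10q26. Over all annotated pseudogenes, 1.32% overlapped a PRO peak, 7.97% an RS peak and 5.57% a DiffBind region. Outside the ends, 1 of 8 such genes overlapped a PRO peak, 6 of 8 an RS peak and 2 of 8 a DiffBind region. The one in PRO was DUX4L26 on chromosome 3, which was also wholly covered in RS. DBET, a long non-coding RNA that starts before the first 4q35 unit and has been linked to DUX4 activation, was 83.8% covered in PRO, 66.0% in RS and 0% in the DiffBind list.

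The sequence next to the arrays on the centromeric side is nearly the same at both ends, and here the groups differed more. Alignment of 4q35 to 10q26 placed 42681 bases in 4 blocks with 99.3% identity, from chr4:190944164-190987295 to chr10:135436071-135478838. This homologous flank was 44.2% G and C at 4q35 and 44% at 10q26, with 15.9 and 16 CpG per kb. PRO covered 4.95% of the flank at 4q35 and 4.77% at 10q26. RS covered 9.04% at 4q35 and 21.1% at 10q26. The DiffBind list covered 18.6% at 4q35 and 19.6% at 10q26. PRO and DiffBind shares were thus alike at both ends, whereas the RS share at 10q26 was higher than at 4q35, with no replicate by which to judge the gap.

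The DiffBind regions of the flank lay at matching places. At 4q35 they were chr4:190969801-190971201, chr4:190976001-190977401 and chr4:190978201-190983401, and at 10q26 there was 1 region of 8.40 kb, chr10:135466601-135475001. The regions nearest to the array ended 2799 bases before the start of the PRO peak on the array at both ends. Of the 4q35 region of 5201 bases, 5153 bases aligned to 10q26, where the DiffBind region spanned the whole aligned stretch of 5165 bases. The 4q35 region of 1401 bases nearest to it also fell within the 10q26 region. The third, chr4:190969801-190971201, corresponded to chr10:135461639-135462926, where DiffBind listed 0 bases and RS covered 1288 bases. Repeated windows made up 78.1% of the longest 4q35 region and 70.0% of the 10q26 region. Windows found at the other end made up 55.2% and 55.7%. Reads from one end could thus be placed on the other, and their part in the match was not tested.

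The middle of the longest flank region is shown at both ends to show how alike they are (chr4:190980702-190980901 and chr10:135472252-135472451, plus strand). Capitals mark the 1 base of 200 that differs between them.
4q35 flank: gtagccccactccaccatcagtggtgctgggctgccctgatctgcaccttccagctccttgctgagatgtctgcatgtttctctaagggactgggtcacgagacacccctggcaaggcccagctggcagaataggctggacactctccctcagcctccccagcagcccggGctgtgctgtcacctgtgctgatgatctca
10q26 flank: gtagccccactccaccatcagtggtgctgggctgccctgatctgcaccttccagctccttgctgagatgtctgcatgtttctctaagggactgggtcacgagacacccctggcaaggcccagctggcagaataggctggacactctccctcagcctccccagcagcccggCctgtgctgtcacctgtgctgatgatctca

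RS peaks overlapped the 10q26 region and 2 of the 3 flank regions at 4q35. RS covered 5802 of 8401 bases of the 10q26 region, 1801 of 5201 bases of the longest 4q35 region and 1201 of 1401 bases of chr4:190969801-190971201. In the remaining 4q35 region, chr4:190976001-190977401, RS covered 0 bases and PRO covered 201. PRO covered 0 bases of the other flank regions at either end. In the flank as a whole, 6547 aligned bases were in a DiffBind region at both ends, which was 83.6% of those covered at 4q35 and 78.1% of those covered at 10q26. For RS, 3337 aligned bases were covered at both ends, 86% of those at 4q35 and 36.9% of those at 10q26. For PRO, 1036 aligned bases were covered at both, 49.3% of those at 4q35 and 50.9% of those at 10q26, and they lay at the edge of the array.

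The longest annotated genes under the DiffBind regions of the flank were the pseudogenes CLUHP4 and CLUHP5. CLUHP4, a pseudogene of the mitochondrial messenger RNA binding protein gene CLUH, was covered to 0% in PRO, 35.3% in RS and 85.1% in the DiffBind list. Its 10q26 counterpart CLUHP5 was covered to 0% in PRO, 82.4% in RS and 100% in the DiffBind list. RARRES2P4 and AGGF1P1 at 4q35, and RARRES2P2 and AGGF1P2 at 10q26, lie farther from the array and overlapped 0 regions of any list. The miRNA annotations U85056.4 in CLUHP4 and AL845259.1 in CLUHP5 were 31.2% and 100% covered in RS, and 100% covered in DiffBind at both ends. The pseudogenes ENSG00000277162 at 4q35 and XX-2136C48.8 at 10q26, which lie just before the first KpnI site, were 100% covered in PRO. In RS they were 98.1% and 100% covered, and in DiffBind 0% at both ends.

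Repeated windows were common in the flanks too, and more so at 4q35. They made up 86.7% of the flank at 4q35 and 64.8% at 10q26. Windows found at the other end made up 56.3% and 57.0%. Windows found on unplaced contigs made up 84.5% at 4q35 and 62.1% at 10q26. Counting chromosomes alone, the repeated shares were 57.9% and 59.5%. The plot of repeated windows and CpG shows both along the ends. Whether the authors' genome index held the unplaced contigs is not given in the sources used here. The part of repeated sequence in the RS difference between the flanks was not tested. Its part in the likeness of their PRO and DiffBind shares was not tested either.

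**Figure D2:**
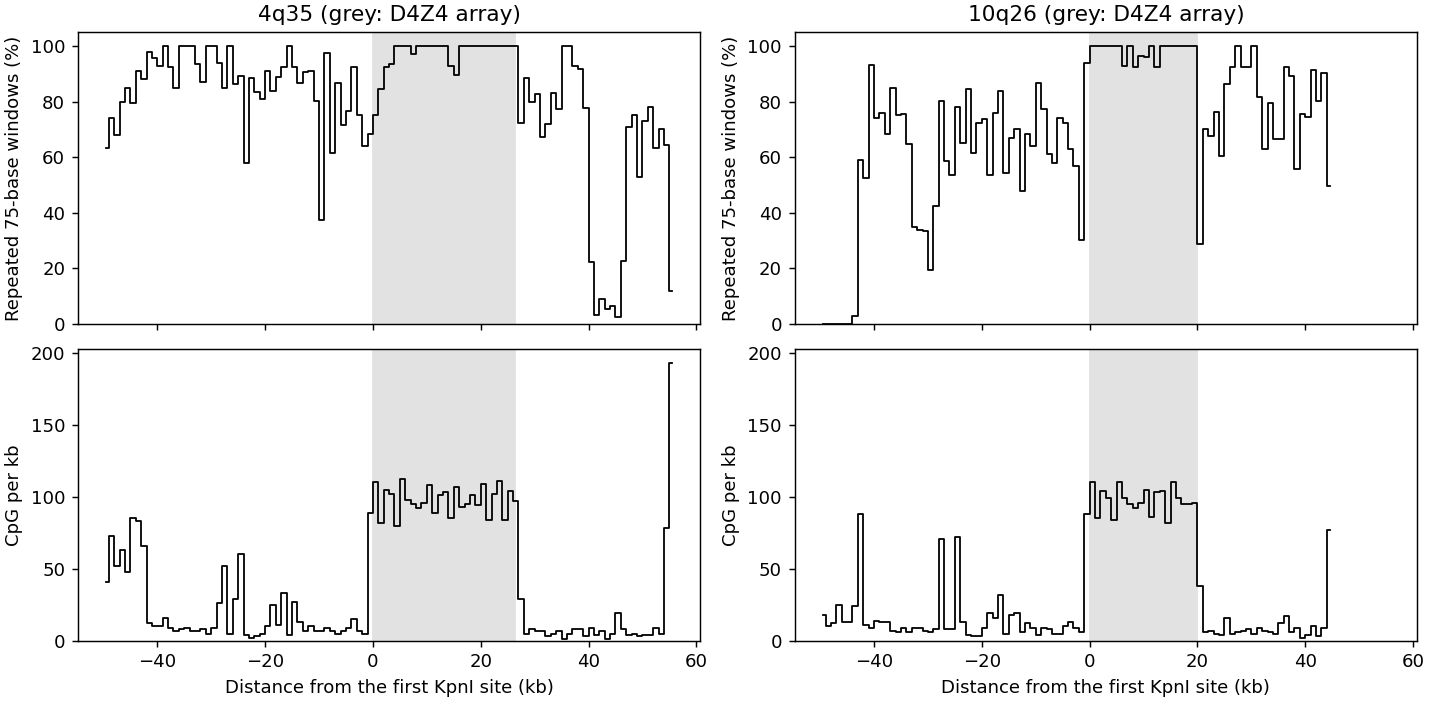
Share of 75-base windows that occur more than once in the genome (top, %) and CpG per kb (bottom) in bins of 1 kb around the D4Z4 array (grey) of 4q35 (left) and 10q26 (right), by distance from the first KpnI site. Repeated windows made up 97.2% and 98.5% of the arrays, where CpG was 97.6 and 97.4 per kb, against 15.9 and 16 per kb in the homologous flanks.

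FRG2 and FRG2B, the protein-coding genes at the far end of the flank, differed in coverage although their sequences are nearly the same. FRG2 (chr4:190945522-190948412, minus strand) aligned to the FRG2B locus with 99.7% identity over 2885 bases. FRG2 overlapped 0 bases of any list. FRG2B (chr10:135437399-135440299, minus strand) was 31.0% covered in PRO and 24.1% in RS, and 0% in the DiffBind list. The PRO peak on FRG2B was chr10:135439401-135440401 and the RS peak chr10:135439601-135440401. Both began 102 bases before the gene start, and they reached 898 bases into the gene in PRO and 698 bases in RS. The covered part of the gene held 387 exonic bases in PRO and 309 in RS of 2097, with the rest intronic.

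The 300 bases from 250 before to 50 after the FRG2B start (chr10:135440250-135440549, minus strand, printed 5′ to 3′ on the strand of the gene) are shown because the peaks lay over them in part. The same stretch at the FRG2 start (chr4:190948363-190948662, minus strand) differed at 0 of 300 bases, so no base is in capitals.
FRG2B start: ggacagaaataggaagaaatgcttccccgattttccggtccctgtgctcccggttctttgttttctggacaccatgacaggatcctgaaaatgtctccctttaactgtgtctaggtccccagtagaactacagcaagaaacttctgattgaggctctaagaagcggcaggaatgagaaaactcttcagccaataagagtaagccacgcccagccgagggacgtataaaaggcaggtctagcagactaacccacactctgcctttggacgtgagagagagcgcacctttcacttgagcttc

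The PRO peak on FRG2B and its place at 4q35 (chr4:190947514-190948514) differed by 3 substitutions over 1001 bases. Of the windows of 75 bases that start in the peak, 150 of 1001 were found once in the genome at 10q26, and 1 of 1001 at 4q35. When unplaced contigs were left out, 151 of 1001 were unique at either end. Nearly all windows of FRG2 that were unique on the chromosomes thus occurred on an unplaced contig as well, those of FRG2B did not, and the part of this in the difference between the genes was not tested. The covered share of each of the pair is therefore uncertain, since reads from one could be placed on the other.

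The nearest peak to FRG2 lay beyond its 3′ end over the inverted D4Z4 copy. In PRO it was chr4:190939801-190945001, 521 bases from the gene, and in RS chr4:190939801-190944001, 1521 bases from it. Both wholly covered DUX4L9, which lies in the inverted copy. In RS 2 more peaks followed on the centromeric side, chr4:190938401-190939001 and chr4:190935801-190937201, over the 5S ribosomal RNA pseudogenes RNA5SP175 and RNA5SP174. These peaks were 68.7% and 65.0% G and C, with 81.5 and 77.1 CpG per kb.

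FRG1 (chr4:190862025-190884357, plus strand) was covered in 6.17% of its bases in PRO, 4.38% in RS and 8.06% in the DiffBind list. A peak of 1801 bases with the same limits in PRO and RS (chr4:190860801-190862601) lay over its start, which it shares with the divergent non-coding RNA FRG1-DT. This peak held 66.1 CpG per kb, and 4.11% of its windows were repeated. RS had a further peak of 401 bases, 6576 bases into the gene, and PRO had one of 801 bases, 17976 bases into the gene. The latter lay wholly within a DiffBind region of 1801 bases (chr4:190879601-190881401), in which RS covered 0 bases. All 1801 bases of that DiffBind region were intronic. The start of FRG1 (chr4:190861775-190862074, plus strand, 250 bases before to 50 after it) is shown with CpG in capitals, as the largest peak on a member gene and one found in both groups.
FRG1 start: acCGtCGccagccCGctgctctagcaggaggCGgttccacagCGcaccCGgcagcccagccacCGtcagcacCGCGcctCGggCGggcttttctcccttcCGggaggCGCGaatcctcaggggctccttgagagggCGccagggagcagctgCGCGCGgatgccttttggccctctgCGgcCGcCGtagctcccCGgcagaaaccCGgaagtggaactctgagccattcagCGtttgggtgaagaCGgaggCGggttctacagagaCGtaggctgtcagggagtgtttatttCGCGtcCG

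**Figure D3:**
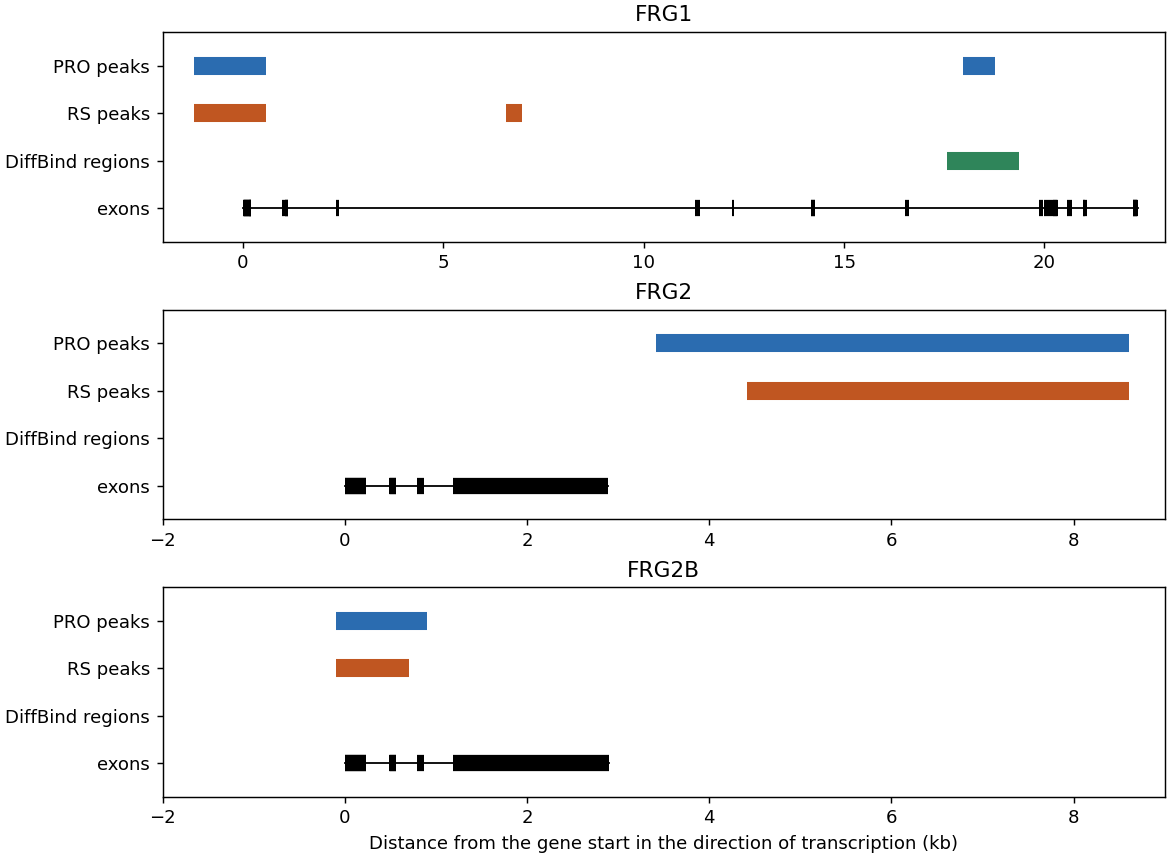
Regions of each list over FRG1, FRG2 and FRG2B by distance in kb from the gene start in the direction of transcription, with exons in black. PRO and RS peaks lay over the starts of FRG1 and FRG2B, whereas the nearest peak to FRG2 began 521 bases past its 3′ end in PRO.

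Of the 3 member genes, 2 overlapped a PRO peak, 2 an RS peak and 1 a DiffBind region. Over all protein-coding genes, 3.97% overlapped a PRO peak, 21% an RS peak and 18.3% a DiffBind region. The coding genes of at least 2 kb nearest to FRG1 in covered share over the 3 lists were TUBB8B, DHX32 and POTEB3, at 2.30, 2.53 and 4.17 percentage points. Those nearest to FRG2B were ZNF418, PRR20B and ZIK1, at 7.72, 10.4 and 16.4 percentage points. Nearness is the Euclidean distance between 3 shares per gene, and FRG2 was left out because all of its shares were 0.

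Copies of the member genes elsewhere were counted by family. Of the 3 annotated copies named for FRG1 on other chromosomes (FRG1JP, FRG1KP and FRG1BP), 3 overlapped a PRO peak, with 7.28% to 18.5% of their bases covered. DiffBind regions overlapped 3 of the 3, over 5.09% to 32.4%, and RS peaks overlapped 2 of the 3, over up to 8.03%. FRG1KP lies within FRG1JP on chromosome 9 and shares its DiffBind bases, so the 3 genes stand at 2 places. Of 11 gene annotations named for FRG2 elsewhere, 2 of which overlap each other, 0 overlapped a region of any list. Over all pseudogenes, the shares were 1.32% for PRO, 7.97% for RS and 5.57% for DiffBind. Over all protein-coding genes, which include FRG2C, they were 3.97%, 21% and 18.3%. The 0 of 11 for FRG2 is no result about that family. FRG1JP and FRG1BP span 27515 and 21886 bases, and the FRG2 annotations elsewhere span 823 to 4532. A longer gene has more bases at which to overlap a region, so the families cannot be compared by these counts.

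The sequence farther toward the centromere lay outside the aligned blocks, and PRO peaks were seen there at 4q35 alone. Blocks were kept only where they ran in the same orientation and order at both ends. The 4q35 remainder therefore holds the inverted D4Z4 copy, with most of the PRO peak and all of the RS peak over it. The 4q35 remainder of 289887 bases held 11 PRO peaks over 4.34% of it, 16 RS peaks over 9.53% and 4 DiffBind regions over 1.66%. The 10q26 remainder of 401323 bases held 0 PRO peaks, 15 RS peaks over 4.04% and 8 DiffBind regions over 4.84%. The peaks and regions of the 10q26 remainder lay around SCART1, a scavenger receptor family gene (7.76% covered in RS and 5.75% in DiffBind), CYP2E1, a cytochrome P450 that metabolises ethanol (1.96% and 2.94%), and SYCE1, a protein of the synaptonemal complex (1.26% and 18.4%). They also covered the olfactory receptor pseudogenes OR6L2P and OR6L1P, which were 97.7% and 100% covered in RS and 100% covered in DiffBind. RS alone overlapped ZNF511-PRAP1, over 0.466% of its bases. The other 15 coding genes of the 10q26 end overlapped 0 regions. The long non-coding gene ENSG00000288107, which runs from this region across FRG2B on the opposite strand, was 1.57% covered in PRO, 10.7% in RS and 17.3% in DiffBind. At 4q35 the non-coding gene FRG1-DT was 2.21% covered in PRO, 3.45% in RS and 1.70% in DiffBind.

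The DiffBind regions of the 2 ends related differently to the peaks. At 10q26, RS peaks overlapped 9 of 9 and PRO peaks 0 of 9. At 4q35, RS peaks overlapped 3 of 9 and PRO peaks 3 of 9. Over the whole DiffBind list, RS peaks overlapped 73.4% of regions and PRO peaks 1.38%. In the other direction, 3 of 23 RS peaks at 4q35 and 12 of 23 at 10q26 overlapped a DiffBind region, against 44.8% over the RS list. For PRO peaks it was 3 of 16 and 0 of 3, against 11.4%. Of the PRO peaks, 6 of 16 at 4q35 and 3 of 3 at 10q26 overlapped an RS peak, against 54.8% over the PRO list. Of the RS peaks, 8 of 23 at 4q35 and 4 of 23 at 10q26 overlapped a PRO peak, against 3.84% over the RS list.

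Beyond the arrays, toward the telomere, PRO and RS covered the sequence less densely than they covered the arrays. At 4q35 this stretch of 30617 bases was 11.2% covered in PRO, 7.90% in RS and 9.81% in DiffBind. At 10q26 the stretch of 26072 bases was 23.3% covered in PRO, 21.0% in RS and 0% in DiffBind. Here 10363 bases aligned between the ends with 93.5% identity, and 0 of them were covered at both ends in any of the 3 lists. The 2 DiffBind regions of the 4q35 stretch, chr4:191023401-191025401 and chr4:191027601-191028601, overlapped 0 peaks of PRO or RS.

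The last peak at both ends reached the last sequenced base. At 4q35 it was chr4:191042801-191044401 in PRO and chr4:191043201-191044401 in RS, and at 10q26 chr10:135522201-135524801 in PRO and chr10:135523201-135524801 in RS. The unknown bases of the telomere gap begin within the last window of each. Of the outermost 2.00 kb of sequence, PRO covered 1476 bases at 4q35 and 2000 at 10q26, RS covered 1076 and 1547, and DiffBind covered 0 at both. Among 41 chromosome ends with sequence, 12 had a PRO peak, 11 an RS peak and 2 a DiffBind region in their outermost 2.00 kb.

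Over the sequenced part of the 500 kb, PRO covered 44.5 kb (11.4%) at 4q35 and 27.9 kb (5.70%) at 10q26, of 390000 and 490000 bases. RS covered 59.5 kb (15.3%) and 50.6 kb (10.3%), and DiffBind covered 15.8 kb (4.05%) and 27.8 kb (5.68%). Among the 41 ends, 4q35 ranked 1 and 10q26 ranked 3 by covered share in PRO, where the median end was 0.228% covered. In RS they ranked 5 and 6, with a median of 1.41%, and in DiffBind 8 and 6, with a median of 1.67%. The RS peak closest to the inner limit of the 4q35 window began 124 bases inside it, and the next one outside ended 275 bases before it. At 10q26 the first RS peak began 99.9 kb inside the limit, and the last one outside ended 101 kb before it.

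**Figure D4:**
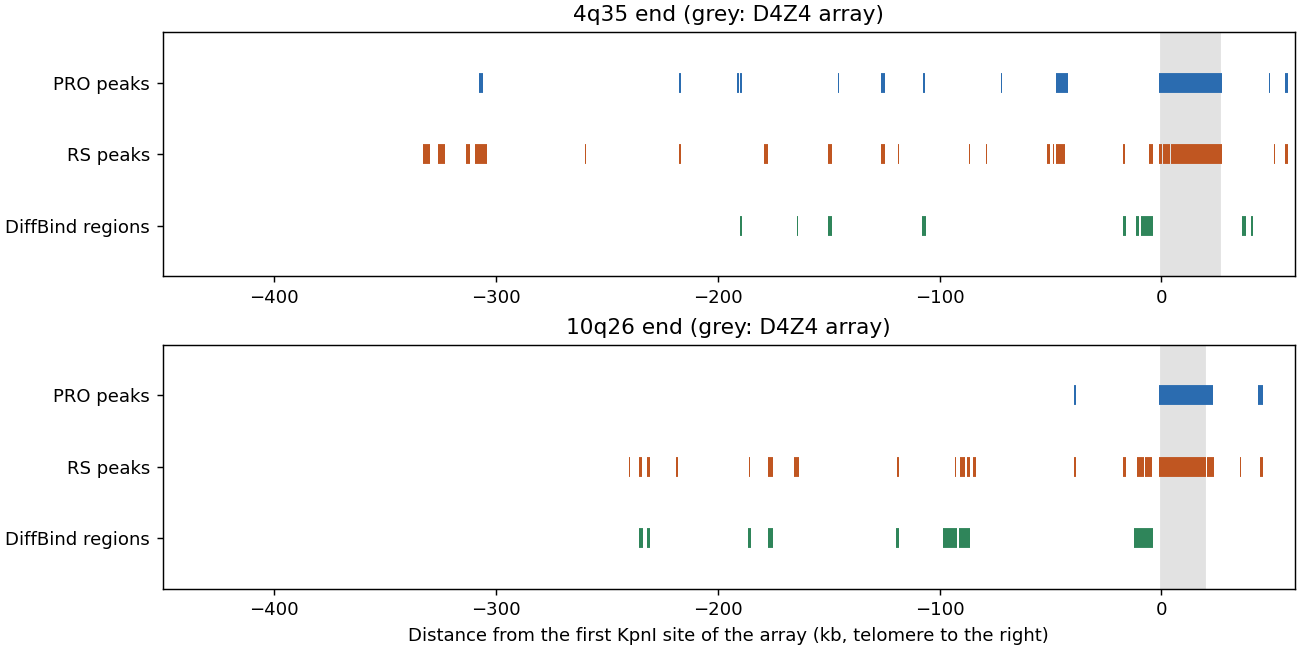
Regions of the PRO, RS and DiffBind lists in the 500 kb ends of 4q35 (top) and 10q26 (bottom), by distance in kb from the first KpnI site of the D4Z4 array (grey), with the telomere to the right. The 4q35 end held 16 PRO, 23 RS and 9 DiffBind regions, and the 10q26 end 3, 23 and 9.

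**Figure D5:**
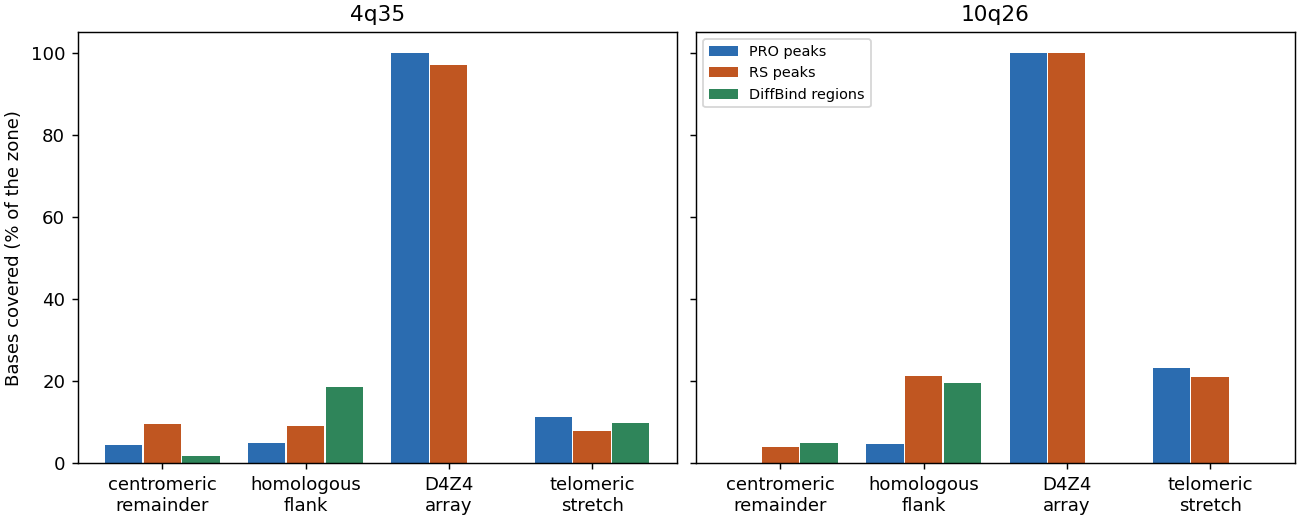
Share of bases (%) covered by each list in the centromeric remainder, the homologous flank, the D4Z4 array and the telomeric stretch of 4q35 (left) and 10q26 (right). PRO and RS covered 97.0% to 100% of the arrays and DiffBind 0%, while DiffBind covered 18.6% and 19.6% of the homologous flanks.

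Genes for chromatin factors known to act at D4Z4 or in H4K20 and H3K9 methylation were also looked up. Over all protein-coding genes the shares were 3.97% for PRO, 21% for RS and 18.3% for DiffBind, as above. Of 12 such genes (SMCHD1, DNMT3B, LRIF1, DNMT1, SUV39H1, SUV39H2, SETDB1, KMT5B, KMT5C, CBX1, CBX3 and CBX5), 0 overlapped a PRO peak. SETDB1, an H3K9 methyltransferase, shared 401 bases (1.04%) with an RS peak. SUV39H1, another H3K9 methyltransferase, shared 207 bases (1.54%) with a DiffBind region. These counts of 0, 1 and 1 of 12 are no result about the list. Expression was not measured in these ChIP-seq samples, and the study's RNA-seq of PRO and RS cells was not used here.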

How the data were processed

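H4K20me3 ChIP-seq of IMR90 cells was analysed in 4 samples, 2 per group, from 3 deposited lists. Per the study's methods, the authors placed the single-end reads on hg19 with Bowtie2, called domains with SICER 1.1 in windows of 200 bases against total H4, and intersected the domains of both antibodies. The submitters' processing notes give Bowtie2 2.1.0 and also name Picard 1.98, without its role. The DiffBind 1.8.3 list was kept at a false discovery rate of 0.01, and the count model used is named in different ways. That list holds fewer regions than the study describes. The deposited files hold start and end positions in bases, with no score, so no other unit was used. Read depth was not used here, and no interval or test needed it. The study lists aligned and duplicate reads that differ between the samples, and their part in the coverage of each list was not tested.

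Regions were used as deposited and printed 1-based. Array, flank and copies came from KpnI sites and BLAST+ 2.17.0 on GRCh37, and genes from GENCODE release 44 on GRCh37. A flank is the sequence that aligned at 90% identity or more in blocks of at least 1000 bases, in the same orientation and order at both ends. Overlap was counted from 1 base. Promoters were read from GRCh37 itself. Chromosome Y was not used here for copies and ends. The named genes were FRG1, FRG2 and FRG2B, all genes of either end overlapping a list, genes with symbols beginning with FRG1, FRG2 or DUX4, the 3 nearest coding genes and 12 chromatin factors. The members and lists were chosen with earlier results of these data known. Coverage and window counting were checked on simulated data. Other region filters, flank definitions and window lengths were tried.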

Additional observations from a re-analysis of the deposited data

How the results depend on the processing

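A value was counted as moved when it left the binomial interval of its main value at windows of 200 bases. Neighbouring windows are not independent, so this interval served only as a fixed limit and measures no sampling spread. No paired analysis was possible because the lists hold no values per sample and no result came from a test, and for the same reason no antibody could be left out. Dropping regions of 1 base, lowering the ends by 1 base, taking the array from annotated genes and aligning at 95% identity moved 0 values, although at 95% the telomeric alignment was lost. The shortest region in either end was 201 bases, so dropping regions of 1 base could not move a value. The centromeric blocks were at least 99.1% identical, so aligning at 95% could not change the flank shares. With regions of at least 1000 bases only, PRO covered 9.92% of 4q35 and 2.58% of FRG1, and RS covered 9.18% of 10q26 and 0% of FRG2B. Merging across gaps of up to 1000 bases closed both RS gaps, which gave 100% of the 4q35 array, and array windows found once gave 73.3%. In the 10000 bases next to the array, the centromeric shares at 4q35 were 11% (PRO), 27.0% (RS) and 53.1% (DiffBind) and at 10q26 10.4%, 60.02% and 61.6%. The telomeric shares were 2.59% (DiffBind, 4q35), 35.3% (PRO, 10q26) and 33.3% (RS, 10q26). Within 2000 bases of its start, FRG1 was 45.0% covered in PRO, 45.0% in RS and 0% in DiffBind. With windows of 50 bases the repeated shares were 21.0%, 91.3%, 68.8% and 37.7% at 4q35 (remainder, flank, telomeric stretch, whole end) and 12.2%, 75.5%, 84.2% and 25.04% at 10q26. At 90% identity, 1 D4Z4-like copy outside the arrays was in a PRO peak, 1 in an RS peak and 0 in a DiffBind region, since only the inverted copy was left.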
